A study of Mus musculus with 14 samples.

Results

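Expression in KLF1-/- KLF2-/- primitive erythroid precursors was compared with that in the wild-type precursors numbered in the same run, with 3 mutant arrays (13, 14 and 15) set against 4 wild-type arrays (9, 10, 11 and 12). These are 7 of the 14 arrays of the series, and no array numbered 1 to 8 entered any value given here. All 12393 genes that the array annotation pairs with a probe set of a single symbol were compared. The titles are numbered, and the labels do not say whether a run of numbers is a batch.

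Both groups are labelled as strain FVB/N and embryonic day 9.5, and neither received a treatment. The mutant embryos are labelled as lacking both copies of KLF1 and both of KLF2, and the design names heterozygous females as the mothers. Genotypes were read by PCR from the tail of each embryo, so the label describes the embryo, including the other cells of its yolk sac. Erythroid cells were captured by laser from stained 8 µm sections of frozen yolk sac. Each replicate pooled 2 to 4 yolk sacs from 2 litters. The sources used here do not say if pools had litters in common, and the p-values measure the spread between these pools. RNA was amplified from the poly(A) end in 2 cycles, and 1 array was hybridised per pool. Levels are log2 expression values, so a difference of −1 is a level lower by a factor of 2.

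Primitive erythroid precursors are the first red cells of the embryo. They arise in the yolk sac, enter the blood while still nucleated, and fill with embryonic globins, heme and a flexible membrane skeleton. KLF1 is a zinc finger factor that binds CACCC-type elements and activates many of these red cell genes. KLF2 belongs to the same family and is best known from endothelium, where it responds to blood flow. The title of the series places both factors in a network with c-MYC, a factor that promotes growth and division.

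The arrays differed within each group. The first principal component of all genes held 63.4% of the variance and followed the spread of an array's values, with wild-type array 12 (interquartile range 2.31) and mutant array 15 (2.39) at its low end and the others between 2.64 and 2.84. The second component held 14.8% and separated the groups. An RNA quality measure, the excess of the 3′ over the 5′ signal of the beta-actin control, separated them too, at 3.74 to 4.55 in wild type and 4.67 to 5.25 in the mutants. The same excess for Gapdh overlapped, at 3.90 to 4.71 and 3.94 to 5.20.

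**Figure D1:**
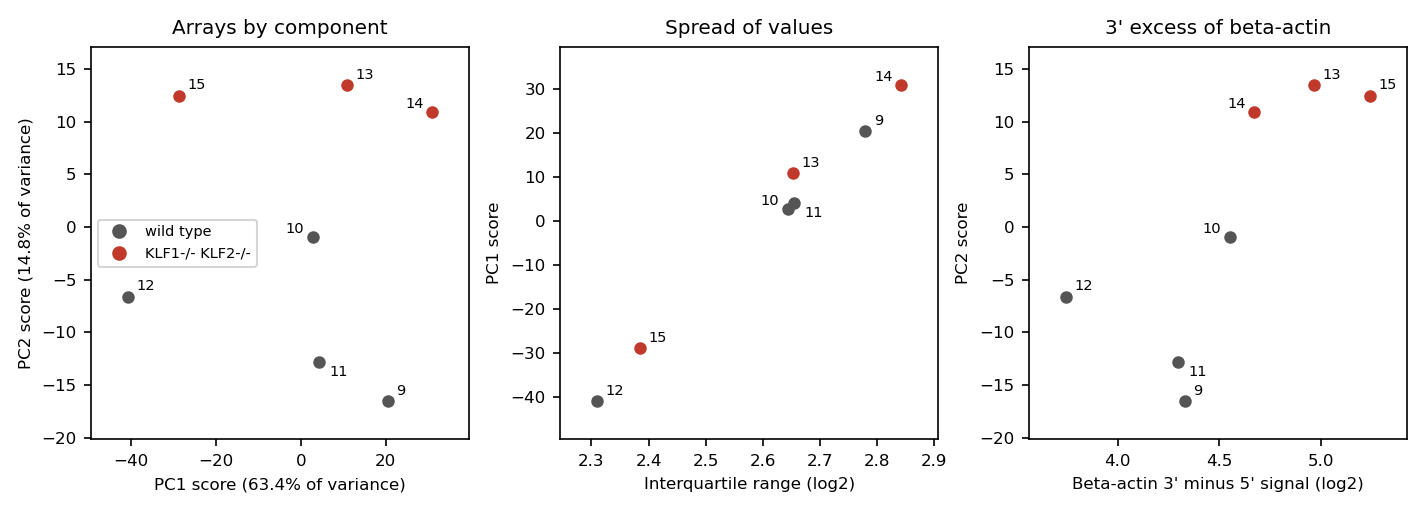
The 7 arrays by principal component scores over all genes, by interquartile range of their log2 values and by the beta-actin 3′ minus 5′ control signal (log2); grey is wild type, red is KLF1-/- KLF2-/-, and numbers are those of the titles. Arrays 12 and 15 share the low end of the first component, and the beta-actin excess is higher on all mutant arrays than on all wild-type arrays.

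Ermap, Kcnn4 and Asb17 fell in the mutant precursors by 4-fold or more, and no gene passed the test in the other direction. Ermap, which encodes an erythroid membrane protein that carries the Scianna blood group, measured 11.43, 10.68, 11.11 and 10.45 in wild type and 7.93, 8.42 and 7.98 in the mutants. The lowest wild-type pool lay above the highest mutant pool by more than the whole spread of either group. Ermap fell by 2.81 (SE 0.248, adjusted p = 0.0186), which is 7.01-fold. Kcnn4, the calcium-activated potassium channel through which red cells lose potassium and water, measured 10.80, 10.36, 10.67 and 10.07 in wild type and 8.39, 8.57 and 8.43 in the mutants. The mutant pools were close together, and Kcnn4 fell by 2.01 (SE 0.181, adjusted p = 0.0186), 4.03-fold. Asb17, whose protein has ankyrin repeats and a SOCS box, measured 7.58, 7.23, 7.13 and 6.91 in wild type and 4.90, 4.70 and 5.20 in the mutants. It fell by 2.28 (SE 0.186, adjusted p = 0.0186), 4.87-fold, again with no overlap. Fewer cells of a type and less RNA per cell cannot be told apart in such bulk values.

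These 3 genes were the only ones called by limma at an adjusted p under 0.05, which is 0.0242% of the genes tested in the lower direction. In the higher direction limma called 0 of 12393 genes (0%). An unadjusted p under 0.05 was reached by 109 genes on the lower side (0.88%) and 354 on the higher side (2.86%). The same counts were 302 and 382 after quantile normalization, and 211 and 381 after each array was scaled to a common median and spread. They also moved with single arrays: 291 and 260 without wild-type array 12, 170 and 767 without mutant array 15, 66 and 203 without array 13, and 139 and 194 without array 14. The calls of Ermap, Asb17 and Kcnn4 were each lost without wild-type array 10 (adjusted p = 0.109 for each), without wild-type array 11 (0.126), without mutant array 13 (0.242) or without mutant array 14 (0.0951, 0.0951 and 0.121 in the same order of genes). Their differences stayed between −2.96 and −2.64 for Ermap, −2.42 and −2.16 for Asb17, and −2.15 and −1.90 for Kcnn4 when any 1 array was left out. The other probe set of Kcnn4 gave a difference of −0.55.

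Without wild-type array 12 and mutant array 15, limma called 10 genes lower and 11 higher, with Ermap, Asb17 and Kcnn4 among the former. With the beta-actin measure in the model limma called 0 genes, with 74 lower and 71 higher at an unadjusted p under 0.05. Ermap, Asb17 and Kcnn4 then had differences of −2.94, −2.74 and −2.25 with adjusted p of 0.717, 0.2 and 0.717. Because the measure does not overlap between the groups, its part and that of genotype cannot be told apart.

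**Figure D2:**
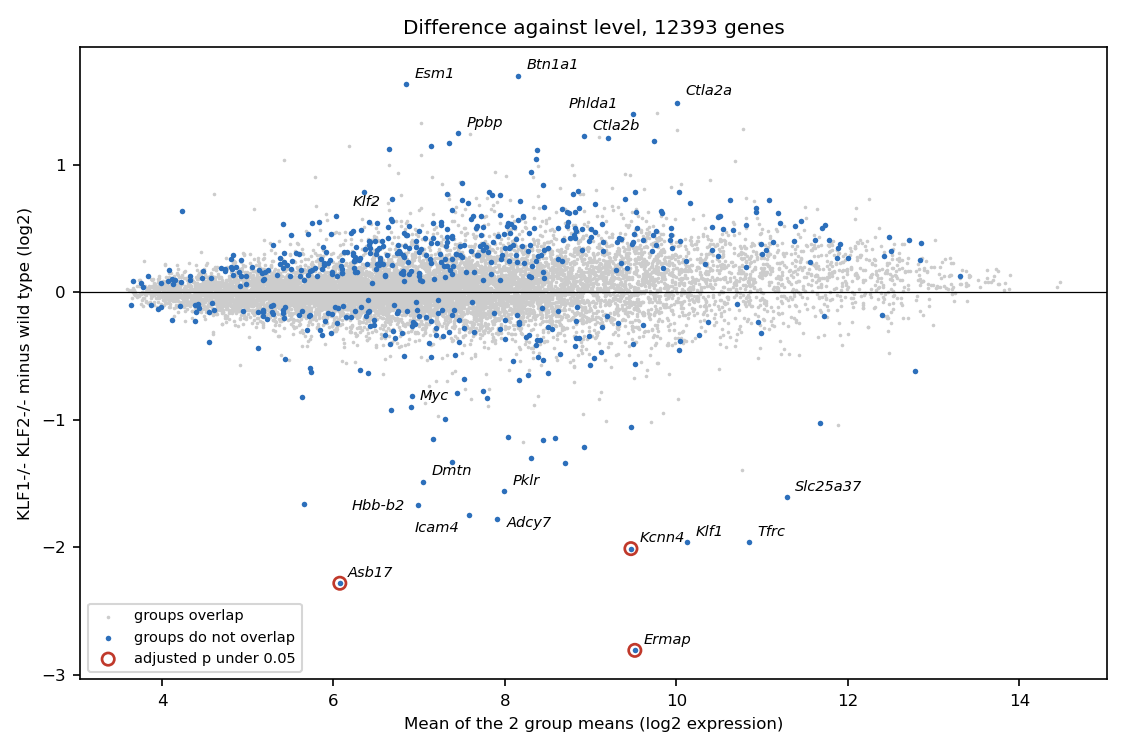
Difference between the group means (KLF1-/- KLF2-/- minus wild type, log2) against the mean of both group means (log2) for 12393 genes. Blue points are genes whose groups do not overlap and red circles mark Ermap, Asb17 and Kcnn4, which passed the adjusted threshold; the largest differences lie on the lower side.

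The promoters of the called genes are shown because KLF1 is known to act through CACCC-type elements, whose core matches the letters CCNCNCCC on either strand. Each is the 250 bases before the RefSeq transcription start on the strand of the gene (assembly GRCm38.p6), with CCNCNCCC matches in capitals.
Kcnn4, chr7:24370013-24370262, plus strand: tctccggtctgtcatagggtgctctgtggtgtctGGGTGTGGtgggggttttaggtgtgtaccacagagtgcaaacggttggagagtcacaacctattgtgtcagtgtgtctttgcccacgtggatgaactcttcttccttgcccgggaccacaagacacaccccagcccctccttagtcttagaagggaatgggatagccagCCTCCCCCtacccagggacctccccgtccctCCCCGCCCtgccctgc
Ermap, chr4:119189996-119190245, minus strand: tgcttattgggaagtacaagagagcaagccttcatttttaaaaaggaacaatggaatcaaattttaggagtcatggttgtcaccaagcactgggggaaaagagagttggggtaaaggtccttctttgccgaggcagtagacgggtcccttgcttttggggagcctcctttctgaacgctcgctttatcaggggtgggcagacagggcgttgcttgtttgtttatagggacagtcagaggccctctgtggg
Asb17, chr3:153843997-153844246, plus strand: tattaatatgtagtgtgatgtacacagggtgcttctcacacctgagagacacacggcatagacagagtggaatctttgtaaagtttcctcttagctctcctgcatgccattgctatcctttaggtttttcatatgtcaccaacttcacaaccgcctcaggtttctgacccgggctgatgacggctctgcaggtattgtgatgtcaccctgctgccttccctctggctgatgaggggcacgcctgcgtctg

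The Kcnn4 window held 3 matches and 1 E-box, CACGTG, the sequence that MYC and its partners bind. The Ermap window held 0 CCNCNCCC matches and 1 GATAA, the core of a GATA factor site, and the Asb17 window held none of these motifs. Motifs were also counted for 12 genes a direction: called genes, then those without overlap and with a difference of at least 1, by p. Of the 12 on the lower side, 9 had RefSeq promoters, and 8 of their 14 promoters (57.1%) held CCNCNCCC. Of the 12 on the higher side, 9 had promoters, and 5 of 11 (45.5%) held it. The share over all 32851 RefSeq promoters was 45.9%. GATAA was in 28.6% and 9.09% of the same promoters against 22.6% of all, and CACGTG in 7.14% and 0% against 6.02%. A match is a description of the sequence and not a bound site.

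Past the called genes, 9 more genes completed the 12 on the lower side. They were chosen by the size and p of their difference and by groups that do not overlap, so their values are a description. Groups did not overlap on the lower side for 175 genes (1.41%), and a difference of at least 1 in size was seen for 27 (0.218%), with both holding for 22 (0.178%). On the higher side the same counts were 373 (3.01%), 25 (0.202%) and 13 (0.105%).

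Adcy7, an enzyme that makes cyclic AMP, measured 9.08, 8.89, 8.86 and 8.34 in wild type and 6.92, 7.27 and 6.86 in the mutants. Its difference of −1.78 (SE 0.195) missed the threshold (adjusted p = 0.0581). Its other probe sets gave −1.05 and 0.08, so the probe sets of this gene disagree. Icam4, a red cell adhesion molecule that carries the LW blood group, measured 9.09, 8.60, 8.30 and 7.80 in wild type and 6.70, 6.62 and 6.79 in the mutants, a difference of −1.75 (adjusted p = 0.228). The mutant pools were alike and the wild-type pools spread widely. Cd24a, a lipid-anchored surface protein of immature red cells, measured 10.12, 9.98, 10.30 and 9.60 in wild type and 8.79, 9.02 and 9.02 in the mutants, a difference of −1.06 (adjusted p = 0.258). All 3 of its probe sets gave a difference between −1.14 and −1.05.

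The transferrin receptor gene Tfrc, through which red cell precursors take up iron, measured 12.50, 11.46, 12.20 and 11.15 in wild type and 9.85, 10.32 and 9.43 in the mutants. The groups did not overlap, and the difference was −1.96 (SE 0.35, adjusted p = 0.372). Its other probe sets gave −0.99 and −0.41. Pklr, the pyruvate kinase of red cells and liver, went from 8.77 ± 0.31 (mean ± SD, n = 4, as for every wild-type mean) to 7.21 ± 0.38 (n = 3, as for every mutant mean), a difference of −1.56 (adjusted p = 0.193), while its other probe sets gave −0.30 and −0.19. Dmtn encodes dematin, which bundles actin in the membrane skeleton. It measured 8.19, 7.68, 7.87 and 7.40 in wild type and 6.16, 6.13 and 6.61 in the mutants, a difference of −1.49 (adjusted p = 0.193). The scaffold gene Homer2 (difference −1.34, adjusted p = 0.251) and Tcim, a small transcriptional regulator (−1.33, adjusted p = 0.228), complete the group together with Klf1.

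Klf1 itself measured 11.82, 11.18, 11.07 and 10.36 in wild type and 9.29, 9.59 and 8.56 in the mutants, with no overlap between groups. Its difference was −1.96 (SE 0.36, adjusted p = 0.372). Klf2 measured 6.31, 6.29, 6.08 and 5.90 in wild type and 6.72, 7.0 and 6.36 in the mutants. All mutant values of Klf2 lay above all wild-type values, a difference of 0.55 (adjusted p = 1), although these pools are labelled as lacking the gene. The sources used here do not place the probes relative to the deleted parts, and the genotype labels are therefore checked by neither gene. Among the 16 measured factors of the KLF and Sp family, Klf1 was the only one whose groups did not overlap on the lower side (6.25% of the list) and Klf2 the only one on the higher side (6.25%). Over all genes these shares were 1.41% and 3.01%. Klf6 had a difference of 0.64 and Klf15 of 0.46, both with overlapping groups, and the median over the family was 0.05 against 0.02 over all genes.

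Myc, the gene of c-MYC, measured 7.88, 7.21, 7.47 and 6.86 in wild type and 6.32, 6.81 and 6.26 in the mutants. The highest mutant value lay just under the lowest wild-type value, and the difference of −0.90 (SE 0.25) missed the threshold (adjusted p = 0.912). Pvt1, a noncoding RNA whose gene lies beside Myc and which was picked out after its values were seen, measured 8.53, 8.02, 8.16 and 8.14 in wild type and 7.48, 7.14 and 7.52 in the mutants, a difference of −0.83 (adjusted p = 0.372). Its other probe sets, both dimmer, gave −0.34 and −0.16. Of the 13 measured genes of the Myc network, Mxd4, a partner of MAX that opposes MYC, was the other one without overlap, at 6.85 ± 0.10 and 7.19 ± 0.19. Myc and Mxd4 were each 7.69% of the list, against 1.41% of all genes on the lower side and 3.01% on the higher. Another probe set of Mxd4 gave −0.02. Among 23 measured Myc targets in ribosome building and nucleotide synthesis, 16 differences were below 0, as were 5464 of all 12393 genes. The median of the list was −0.15, against 0.02 over all genes. Nop56 (−0.41) and Nop2 (−0.24), both needed to build ribosomes, had groups that did not overlap. This is 8.70% of the list, against 1.41% of all genes on the lower side. An unadjusted limma p under 0.05 was reached by 1 of the 23, on the lower side, against 0.88% of all genes. The other probe set of Nop56 gave −0.14 with overlapping groups. Ncl, which encodes nucleolin, had the largest difference of the list, −0.83, with overlapping groups.

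**Figure D3:**
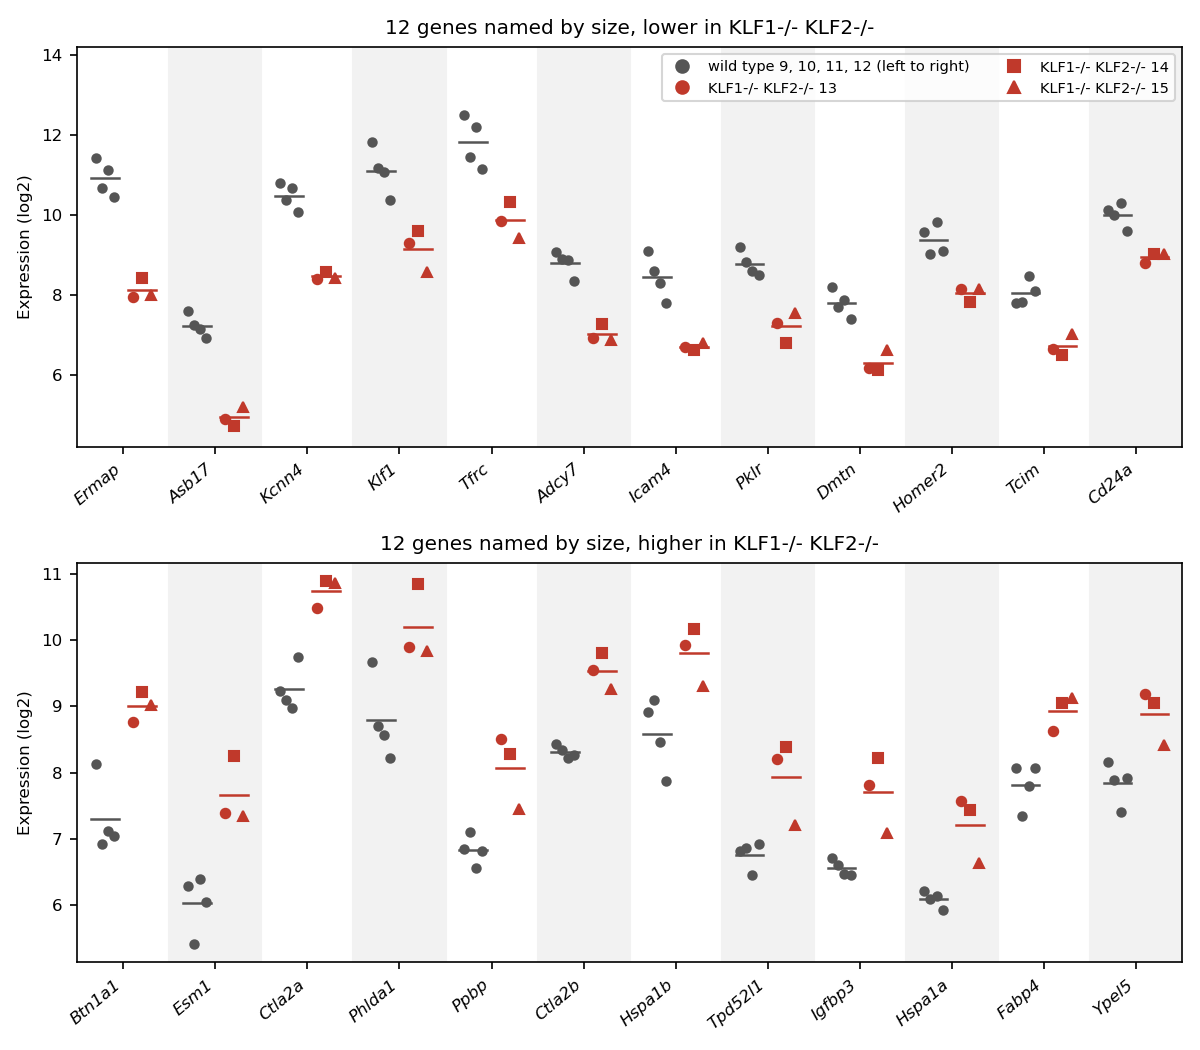
Expression (log2) on each array for the 12 genes described in each direction. They are called genes, then those without overlap and with a difference of at least 1, by p. Grey circles are wild-type arrays 9 to 12 from left to right, red symbols the 3 KLF1-/- KLF2-/- arrays, and lines the group means; Ermap and Asb17 show the widest gaps between groups, while array 15 (triangle) is often the mutant nearest to wild type among the genes of the lower panel.

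The embryonic globins, which carry oxygen in these cells, were at the top of the range in both groups. Hbb-y measured 14.42 ± 0.09 in wild type and 14.46 ± 0.06 in the mutants, and Hbb-bh1 14.44 ± 0.14 and 14.52 ± 0.16. The highest value on any of these arrays was 14.63, so the array leaves little room to see a difference there. Hba-x, the embryonic alpha-like globin, measured 12.81 ± 0.61 and 12.87 ± 0.68. Adult beta globin Hbb-b2 measured 7.63, 7.70, 7.82 and 8.14 in wild type and 5.26, 6.76 and 6.44 in the mutants, a difference of −1.67 (adjusted p = 0.431). It was the only measured globin of 6 whose groups did not overlap (16.7%, against 1.41% of all genes on the lower side). Its second probe set gave −0.17, and adult beta globin genes are near-identical copies, so the source of this signal is uncertain. Of the erythroid markers set against the labelled cell type, Hbb-y, Hbb-bh1, Hba-x, Alas2, Gata1 and Slc4a1 had group means above 10. Hba-a1, an adult alpha globin, was dim at 4.67 and 4.73 on its only probe set of a single symbol. Probe sets naming several genes were left out, so this value does not give the level of adult alpha globin. Markers of visceral endoderm (Ttr, 13.66 and 13.83) and of mesenchyme (Lum, 11.34 and 11.54) were bright as well, so these levels do not give the share of erythroid RNA.

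Iron handling was uneven. Slc25a37 encodes mitoferrin, which carries iron into mitochondria. It measured 12.60, 11.85, 12.27 and 11.63 in wild type and 10.13, 11.07 and 10.25 in the mutants, a difference of −1.61 (adjusted p = 0.372). Tfrc, Slc25a37 and the iron reductase gene Steap3 (−0.27) did not overlap between groups. They were 3 of 14 measured members (21.4%), against 1.41% of all genes on the lower side. All 3 had an unadjusted limma p under 0.05, against 0.88% of all genes on that side. The median of the list was −0.02. The ferritin gene Fth1 (0.27), the iron exporter gene Slc40a1 (0.40) and the ferritin receptor gene Ncoa4 (0.47) had differences above 0 with overlapping groups. In heme synthesis, Alad, the second enzyme of the pathway, went from 11.47 ± 0.75 to 10.07 ± 1.05, a difference of −1.39 with overlap: mutant array 14 at 11.04 lay above wild-type array 12 at 10.45. Alas2, the first and rate-limiting enzyme in red cells, measured 10.80 ± 0.59 and 10.45 ± 0.66. No heme gene of 15 measured had groups without overlap, and the list's median was −0.16. With 1.41% of all genes without overlap on the lower side and 3.01% on the higher, such an absence says little.

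Among the red cell lists, that of blood group and surface genes held the most members without overlap. Of 17 measured members, 5 did not overlap on the lower side (29.4%, against 1.41% of all genes). An unadjusted p under 0.05 was reached by 6, all lower, against 0.88% of all genes. The lists were chosen with earlier results of these data known, so their ranking is a description. Those without overlap were Ermap, Icam4, Cd24a, Rhd and Tspan33. Rhd, the Rh blood group gene, went from 7.80 ± 0.58 to 6.81 ± 0.28, and Kel, of the Kell group and the last of the 6, from 7.70 ± 0.57 to 6.73 ± 0.62 with overlap. Of 15 measured membrane skeleton genes, Dmtn, the ankyrin gene Ank1 (9.27 ± 0.13 and 8.70 ± 0.25) and the beta-adducin gene Add2 (7.45 ± 0.12 and 7.11 ± 0.14) did not overlap (20%). Slc4a1, the band 3 anion exchanger that anchors the skeleton, measured 12.94, 12.36, 12.63 and 11.69 in wild type and 11.20, 12.13 and 10.77 in the mutants. Its difference was −1.04 with overlap, and its other probe sets gave −1.27 and 0.06. The spectrin gene Sptb (−0.06), Epb42 (−0.42) and Tmod3 (0.32) had overlapping groups.

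In ion, water and solute transport, Kcnn4, the potassium-chloride cotransporter gene Slc12a4 (−0.26) and the nucleoside transporter gene Slc29a1 (−0.19) did not overlap. They were 3 of 15 measured (20%), against 1.41% of all genes on the lower side. The carbonic anhydrase gene Car2 had a difference of 0.74 with overlap. Pklr was the only glycolytic gene of 15 without overlap (6.7%, against the same 1.41%), and the median of the list was 0.10. Aldoa, an aldolase, went from 10.74 ± 0.34 to 11.20 ± 0.42. None of 16 antioxidant genes had groups without overlap, with Gpx4 at 0.57 and Blvrb at −0.61 the widest differences. With 1.41% of all genes without overlap on the lower side and 3.01% on the higher, such an absence says little.

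**Figure D4:**
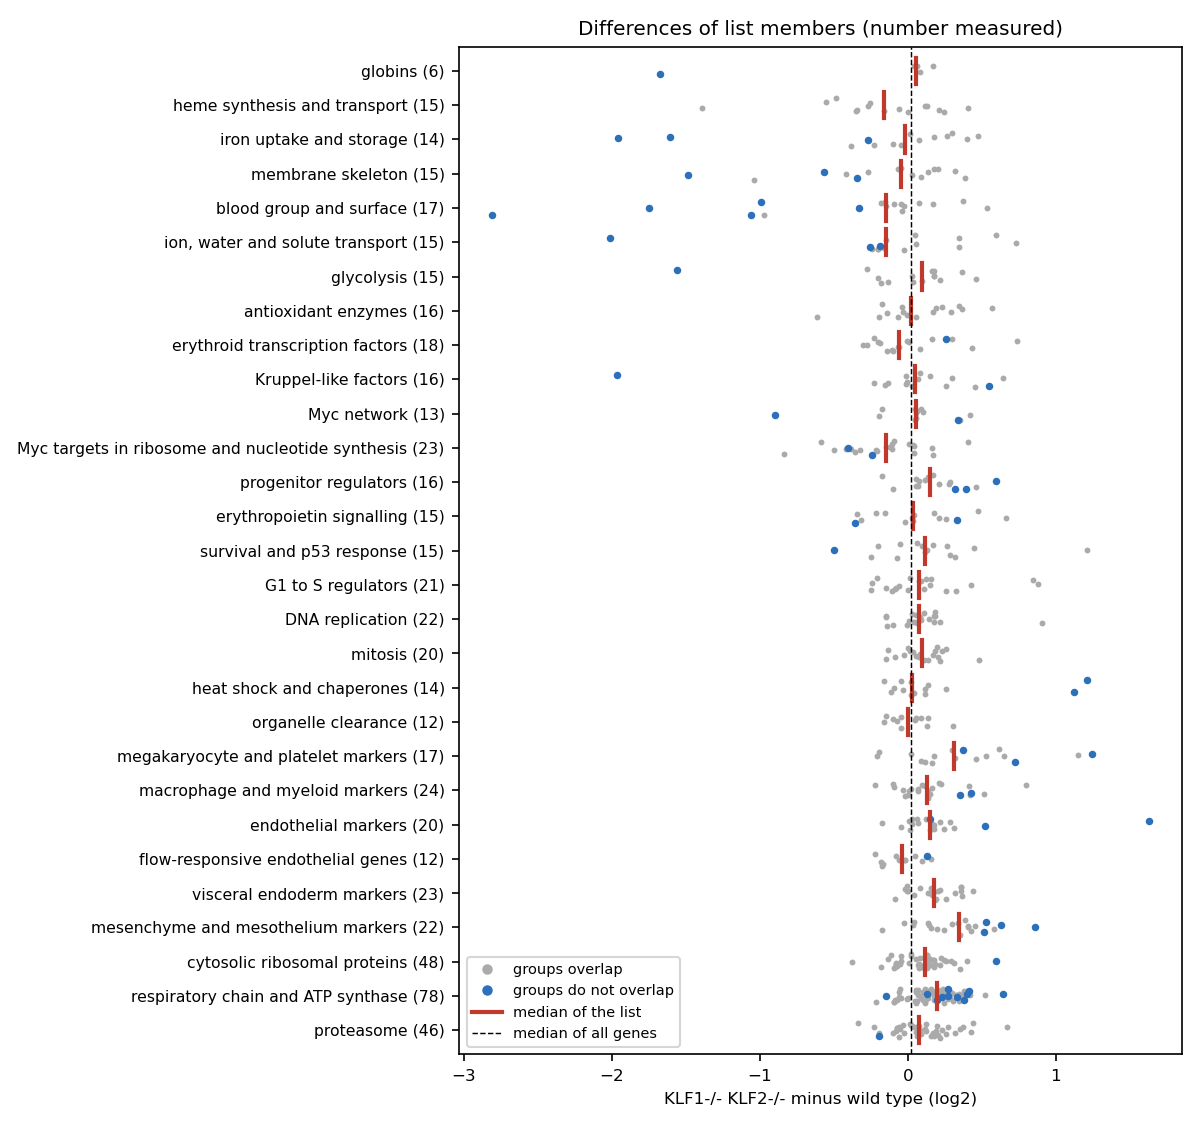
Difference (KLF1-/- KLF2-/- minus wild type, log2) of every measured member of 29 gene lists, with the number measured in brackets. Blue points are members whose groups do not overlap, red bars list medians and the dashed line the median of all genes; single members of the surface, iron, skeleton and transport lists lie far to the left while every list median stays between −0.16 and 0.35.

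Among erythroid transcription factors, Gata1, which directs the red cell programme, measured 10.97 ± 0.57 and 11.13 ± 0.75. Of 18 measured factors, Sox6, which helps silence embryonic globin, was the only one whose groups did not overlap (5.56%), at 5.73 ± 0.10 and 5.98 ± 0.08. Over all genes 3.01% did not overlap on the higher side. Myb, a factor of immature blood cells, measured 7.36, 7.23, 7.82 and 7.29 in wild type and 8.10, 8.69 and 7.71 in the mutants, a difference of 0.74 with mutant array 15 inside the wild-type range. In the 16 progenitor regulators, 14 differences were above 0, with a median of 0.15. Over all genes 55.9% were above 0, and the share without overlap on the higher side was the same 3.01%. Hhex (7.91 ± 0.05 and 8.51 ± 0.39), Cebpb (7.12 ± 0.07 and 7.52 ± 0.12) and Egr1 (7.45 ± 0.11 and 7.77 ± 0.18) did not overlap (18.8%). These encode transcription factors of blood progenitors, of myeloid cells and of the early response to growth signals. The erythropoietin receptor gene Epor had a difference of −0.36 without overlap, and Cish, a feedback inhibitor of its signalling, one of 0.33. In the p53 response list, Btg2, which slows division, had a difference of −0.50 without overlap, and its other probe set gave −0.10. Gadd45a, a stress response gene, had one of 1.21 with wide spread in both groups (SD 1.02 and 1.27).

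No measured member of the cell cycle lists separated the groups. Of 21 regulators of entry into S phase, 22 replication genes and 20 mitosis genes, 0 had an unadjusted limma p under 0.05 and 0 were without overlap. Over all genes, 0.88% on the lower side and 2.86% on the higher had such a p, and 1.41% and 3.01% were without overlap. With shares this small, 0 in lists of this size says little about these genes. The list medians were 0.07, 0.07 and 0.10. The replication median became −0.01 after quantile normalization, and without mutant array 14 the 3 medians were −0.03, −0.11 and −0.11. Mcm3, a subunit of the replicative helicase, measured 9.0, 10.13 and 7.20 in the mutants, and another of its probe sets gave −0.25. Cdkn1c, an inhibitor of cyclin-dependent kinases, had a difference of 0.88, and Rb1, the retinoblastoma gene, one of 0.85, both with overlap.

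On the higher side the 12 genes described, again chosen by size, p and lack of overlap, included none that passed the threshold. Ctla2b and Ctla2a, which encode inhibitors of cysteine proteases, came nearest. Ctla2b measured 8.43, 8.35, 8.22 and 8.26 in wild type and 9.55, 9.80 and 9.26 in the mutants, a difference of 1.22 (SE 0.14, adjusted p = 0.0764). Ctla2a measured 9.24, 9.09, 8.98 and 9.75 in wild type and 10.48, 10.90 and 10.86 in the mutants, a difference of 1.48 (adjusted p = 0.193). The mutant pools stood clear of wild type for both, but the genes are near-identical copies, so the signal cannot be given to either with certainty. Btn1a1, which encodes butyrophilin of the milk fat membrane, measured 8.14, 6.92, 7.12 and 7.04 in wild type and 8.76, 9.22 and 9.03 in the mutants, a difference of 1.70 (adjusted p = 0.335). Wild-type array 9 stood above the other wild-type pools, and without it Btn1a1 had a difference of 1.98 (adjusted p = 0.0306). Its other probe sets, both dim, gave 0.07 and 0.26.

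The inducible heat shock protein genes Hspa1a and Hspa1b, another near-identical pair, had differences of 1.12 and 1.21. Hspa1a measured 6.21, 6.09, 6.14 and 5.92 in wild type and 7.58, 7.43 and 6.63 in the mutants. They were the only members without overlap of 14 measured heat shock genes (14.3%, against 3.01% of all genes on the higher side). The median of the list was 0.03. Phlda1 (1.40), Igfbp3 (1.15), which binds insulin-like growth factors, Tpd52l1 (1.17), Ypel5 (1.05) and the fatty acid binding protein gene Fabp4 (1.12) completed the group with Esm1 and Ppbp. Mutant array 15 was the mutant nearest to wild type for 9 of these 12 genes. Without array 15, limma called 7 genes on the higher side, among them Ctla2b, Hspa1a, Ppbp, Igfbp3 and Tpd52l1, and 4 on the lower side.

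Markers of other cells of the yolk sac had differences above 0 in most members, where 6929 of all 12393 genes (55.9%) did. Esm1, an endothelial proteoglycan gene, measured 6.28, 5.41, 6.39 and 6.05 in wild type and 7.38, 8.26 and 7.35 in the mutants, a difference of 1.63 (adjusted p = 0.372). Ppbp, the platelet basic protein gene, measured 6.85, 7.10, 6.56 and 6.81 in wild type and 8.50, 8.28 and 7.44 in the mutants, a difference of 1.25 (adjusted p = 0.46). Neither gene overlapped between groups. Of 17 measured megakaryocyte and platelet markers, 15 had differences above 0, with a median of 0.32. Of the 17, 3 did not overlap (Ppbp, Clec1b and Gp5, 17.6%), against 3.01% of all genes on the higher side. An unadjusted limma p under 0.05 was reached by 5, against 2.86% of all genes on that side. The mean level of the list ran from 6.96 to 7.08 in wild type and from 7.18 to 7.56 in the mutants. Vwf, of platelets and endothelium, measured 7.20, 7.33 and 5.74 in the mutants against 5.61 ± 0.21 in wild type, so mutant array 15 lay within the wild-type range. The platelet chemokine gene Pf4 was bright in both groups, at 11.31 ± 0.26 and 11.96 ± 0.37.

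Of 22 measured mesenchyme and mesothelium markers, 20 had differences above 0, 4 did not overlap (18.2%) and 6 had an unadjusted limma p under 0.05. Over all genes, 3.01% did not overlap on the higher side and 2.86% had such a p. Vim, an intermediate filament gene, measured 11.53, 11.54, 11.44 and 11.38 in wild type and 12.07, 12.12 and 11.81 in the mutants, a difference of 0.53 (adjusted p = 0.493). Fstl1 (0.63), Postn (0.52) and the platelet-derived growth factor receptor gene Pdgfrb (0.86) were the others without overlap. Other probe sets gave 0.20 for Fstl1 and 0.08 for Pdgfrb. The mean of this list ran from 8.91 to 9.29 in wild type and from 9.25 to 9.43 in the mutants, with overlap. Of 20 endothelial markers, 18 were above 0 and Esm1, Cldn5 (0.52) and Esam (0.15) did not overlap (15%, against the same 3.01%). The mean of the list ran from 6.99 to 7.13 and from 7.16 to 7.38. Pecam1, a defining endothelial marker, was dim in both groups at 4.89 and 4.92, where the lowest values on the arrays were 3.38 to 3.45.

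Of 24 macrophage and myeloid markers 19 were above 0, and Tyrobp (0.43) and C1qb (0.36) did not overlap. This was 8.33% of the list, against 3.01% of all genes on the higher side. The mean of the list ran from 6.56 to 6.77 in wild type and from 6.83 to 6.85 in the mutants. Of 23 visceral endoderm markers 19 were above 0 and none was without overlap. With a share over all genes this small, such an absence says little. Afp measured 13.53 ± 0.21 and 13.70 ± 0.11, and Apoa1 10.89 ± 0.80 and 11.25 ± 0.43. The endothelial genes that respond to flow, among them known targets of KLF2, had a median of −0.04 over 12 measured members. Sele (0.13) was the only one without overlap (8.33%, against 3.01% of all genes on the higher side). Sele was dim in both groups, at 4.27 in wild type and 4.40 in the mutants. The KLF2 target genes Nos3 and Thbd had differences of −0.02 and −0.18. The part of other cells in any difference given above was not tested.

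**Figure D5:**
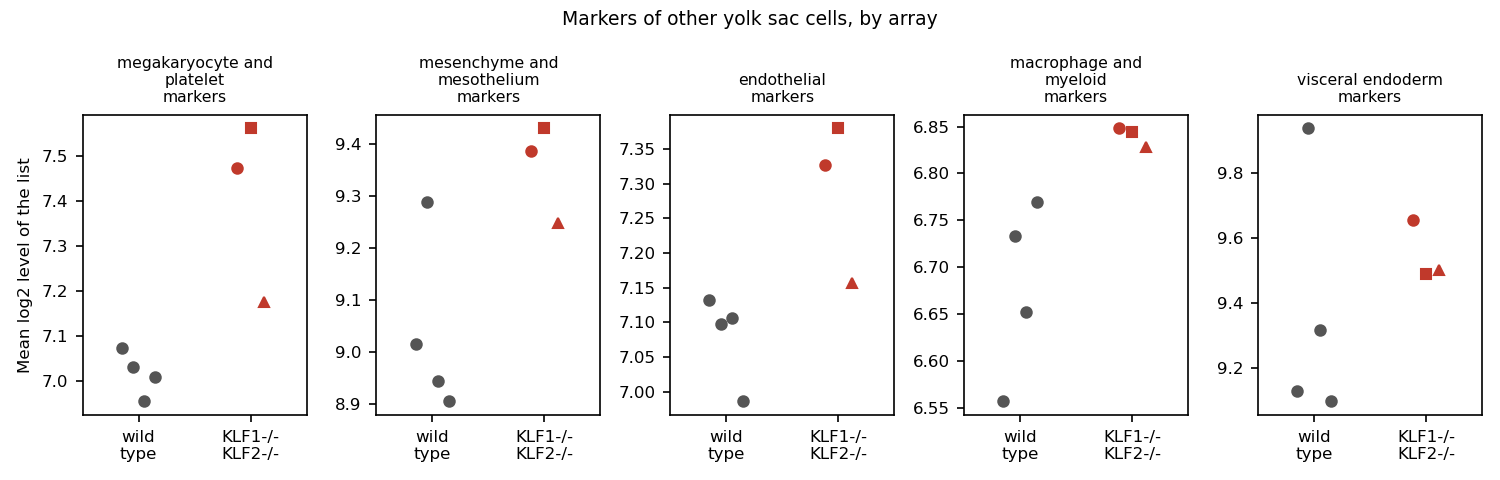
Mean log2 level of 5 marker lists on each array, with a separate scale for each list; grey circles are the 4 wild-type arrays and red symbols the 3 KLF1-/- KLF2-/- arrays (13 circle, 14 square, 15 triangle). The groups do not overlap for the megakaryocyte, endothelial and macrophage lists and overlap for the mesenchyme and visceral endoderm lists.

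Genes of energy metabolism and protein turnover had small differences, to be read against the 55.9% of all genes above 0. Over all genes, 3.01% did not overlap on the higher side and 1.41% on the lower. In lists this large, 1 member without overlap is near those shares. Of 78 respiratory chain and ATP synthase genes, 67 were above 0, 10 did not overlap on the higher side (12.8%) and 1 on the lower (1.28%). The median was 0.20, and 0.09 after quantile normalization. Ndufa2 (0.41), Ndufb10 (0.40), Ndufb6 (0.38), Ndufv3 (0.33) and Ndufb7 (0.27), subunits or accessories of complex I, were among the 10, as was Cox6b2 of complex IV (0.64). Of 48 ribosomal protein genes 36 were above 0, with a median of 0.11 that became 0.01 after quantile normalization, and Rps25 (0.60) alone was without overlap (2.08%). Of 46 proteasome genes 33 were above 0, with a median of 0.07 that became −0.01 after quantile normalization, and Psmb10 (−0.19) alone was without overlap (2.17%).

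Genes beside the mutated loci were counted too. Of 20 protein-coding neighbours on each side of Klf1, 29 were measured and Hook2 (−0.34) alone did not overlap (3.45%). Of those around Klf2, 26 were measured, and Sin3b (0.62) on the higher side and 1700030K09Rik (−0.14) on the lower did not overlap (3.85% each). Over all genes the shares were 1.41% lower and 3.01% higher, and 1 member in lists this small is near them. Other probe sets of Sin3b gave 0.56, 0.25 and, on the dimmest, −0.02. The medians of both neighbour lists were within 0.01 of 0.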

How the data were processed

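RNA from the captured cells was hybridised to Affymetrix mouse expression arrays, 1 per pool. The log2 expression values per probe set were deposited by the authors; GCOS, RMA, affy and limma are named, without versions, in the submitters' processing notes. RMA normalizes between arrays, compresses differences between weak signals and hides a change shared by most genes. Of 22690 probe sets, 20380 name 1 gene, 691 name several genes, 1555 name none and 64 are controls. Each of 12393 genes was taken as its brightest probe set, without a filter. Groups came from the sample titles.

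The 7 arrays were fitted in R 4.3.3 by lmFit and eBayes of limma 3.58.1 (two-sided, Benjamini-Hochberg over all genes, called at an adjusted p under 0.05), and every adjusted p comes from that fit unless another setting is named. The fit was run on simulated data whose noise was independent between genes. There, 50 genes were given each of the differences −2, −1, 1 and 2. The fit called 90% of differences of 2 in size and 64% of those of 1, with 5 false calls. The adjusted threshold depends on how many genes differ, so these shares do not give the share found on the real arrays. Effects shared by the genes of an array were not simulated. The number of arrays limits the precision. Gene lists are described by counts and medians. Named genes are Klf1, Klf2 and Myc, up to 12 genes a direction (called genes, then those without overlap and with a difference of at least 1, by p), and up to 4 called or 2 leading members of each list. Others, including Pvt1, Slc4a1, Steap3, Add2, Rhd, Kel, Egr1, Gp5, Vwf, Clec1b, Postn, Pdgfrb and the extremes of lists, were picked after their values were seen. The members and lists were chosen with earlier results of these data known. RefSeq promoters of GRCm38.p6 gave the sequences. Alternatives changed the probe set rule, a filter on dim genes, normalization, the variance model, array weights, RNA quality covariates and the arrays fitted; the beta-actin covariate, weights with a strong prior and the fit without arrays 12 and 15 were chosen after seeing the data. Tables and figures used matplotlib 3.10.9, numpy 2.4.6, pandas 2.3.3 and Python 3.11.15.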

Additional observations from a re-analysis of the deposited data

Results flagged for a closer look

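Probe set 1449077_at, which the annotation used here pairs with no gene, lies outside the comparison of genes. It measured 13.12, 12.78, 12.95 and 12.65 in wild type and 8.38, 8.30 and 7.65 in the mutants, a log2 difference of −4.77 (SE 0.202, 27.2-fold lower, limma adjusted p = 0.000554 over all probe sets). Of 2246 probe sets with no gene or several, it was the only one called, with 12 lower and 36 higher at an unadjusted p under 0.05.

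In 142 sets of 4 wild-type values, the gap of the highest or lowest array to its neighbour was set against the range. It passed Dixon's critical value in 4 sets, where chance gives about 1 in 20. Btn1a1 was set apart by wild-type array 9 at the top (gap over range 0.834). Ndufb10, a complex I subunit gene, was set apart by wild-type array 12 at 9.40 (0.871), and the Gapdh 3′ minus 5′ control signal by the same array at 3.90 (0.876). The mean of the sex-linked genes was set apart by wild-type array 11 at the bottom (0.838). Its Y-linked gene Eif2s3y measured 9.26, 8.71, 4.03 and 8.02 in wild type and 9.07, 4.23 and 6.60 in the mutants.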

How the results depend on the processing

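The counts of 3 genes lower and 0 higher became 11 and 1 with quantile normalization, 8 and 1 with median and spread scaling, 579 and 955 with array weights (a fit that gave array 13 a weight of 46.7 and did not converge), 10 and 11 without arrays 12 and 15, and 0 lower with the beta-actin covariate. Trend with robust variance, and the Gapdh covariate, each gave 4 and 1. Leaving out 1 array gave 0 to 5 lower and 0 to 7 higher. The mean of probe sets gave 2 and 0, every probe set on its own 3 and 0, the brighter 6197 genes 3 and 0, and weights with a strong prior 3 and 0. The 3 called among the brighter genes were Ermap, Kcnn4 and Adcy7, since Asb17 was too dim to be among them. The 11 under quantile normalization were Ermap, Asb17, Kcnn4, Tfrc, Klf1, Adcy7, Icam4, Slc25a37, Dmtn, Ccdc71l and Plek2. With the mean of its probe sets Kcnn4 was at −1.28 (adjusted p = 0.0841). The cause of these shifts was not tested.

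Of 109 named genes, 0 changed sign under either rescaling. Signs turned on another probe set for Adcy7 (0.0834), Fabp4 (−0.046), Mxd4 (−0.0211), Mcm3 (−0.25), Atg5 (0.029), Laptm5 (−0.0098), Kdm5d (0.0385 and 0.0478), Slc4a1 (0.0626), Steap3 (0.0461), Sin3b (−0.0228), Mycl (−0.032) and Dhh (0.0873). With array weights they turned for Rrm2 (−0.0911), Prc1 (−0.0276), Xist (−0.21) and Kdm5d (0.39), and without array 14 for Prc1 (−0.0103). List medians changed sign in 13 of 32 lists without mutant array 14, in 10 without wild-type array 12, in 1 to 4 without any other array, and in 5 with median and spread scaling. They did so in 7 with quantile normalization, among them globins, antioxidant enzymes, heat shock genes and the proteasome, all within 0.1 of 0. No paired analysis was possible because the groups share no replicate number.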

Other observations

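Further genes, picked after their values were seen, had groups that did not overlap. Arrb1, which encodes a beta-arrestin, measured 7.23, 6.27, 6.72 and 5.75 in wild type and 4.61, 5.30 and 4.58 in the mutants, a difference of −1.66 (adjusted p = 0.491). Plek2, an actin-organising protein of red cell precursors, went from 8.61 ± 0.37 to 7.47 ± 0.25 (−1.14). Ctse, the protease cathepsin E, went from 9.15 ± 0.49 to 8.01 ± 0.12 (−1.14, and −0.07 on a dim probe set), and Acp5, an acid phosphatase, from 9.03 ± 0.66 to 7.87 ± 0.31 (−1.16). Pigq, of the pathway that builds lipid anchors for surface proteins, went from 12.19 ± 0.38 to 11.16 ± 0.10 (−1.03). Another 3 of its probe sets gave between −1.14 and −0.99, and the last 3 between −0.24 and −0.11. The chaperone gene Dnaja4 measured 6.23, 6.18 and 7.37 in the mutants against 7.74 ± 0.12 in wild type, so array 15 stood near wild type. The other probe sets of Dnaja4 gave −0.65 and −0.07.

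Smaller differences with little spread within groups were seen in 2 signalling genes. Dhh, a hedgehog ligand, went from 7.32 ± 0.15 to 6.51 ± 0.09 (adjusted p = 0.193), and the parathyroid hormone receptor gene Pth1r from 6.04 ± 0.16 to 5.22 ± 0.13 (adjusted p = 0.228). Another probe set of Dhh gave 0.09. On the higher side, Plac8 went from 8.02 ± 0.18 to 8.87 ± 0.25, the linker histone gene H1f2 from 9.15 ± 0.66 to 10.33 ± 0.51, and Rai2, dim in both groups, from 3.91 ± 0.06 to 4.55 ± 0.11.

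Genes for organelle clearance, which red cells use to lose their mitochondria, had no member without overlap among 12 measured, and a median of 0.003. With 1.41% of all genes without overlap on the lower side and 3.01% on the higher, such an absence says little. Map1lc3b, an autophagosome protein gene, measured 12.20 ± 0.12 and 12.33 ± 0.07. Its other probe sets gave 0.90, 0.52 and 0.08, with overlapping groups.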
